A study of Mus musculus with 176 samples.

Results

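Single CD4 T cells that bound the P6:I-Ab tetramer (P6+ cells) were compared with cells that did not (P6- cells) over the whole transcriptome. P6 is a peptide of apolipoprotein B, the protein of low-density lipoprotein particles, and the tetramer carries it on I-Ab, the MHC class II molecule of C57BL/6J mice. The members were chosen by the tetramer sign deposited for each cell, and 32 of the 176 cells were P6+. Of the 144 P6- cells, 129 were kept. Limits were 500000 reads and 2000 genes at the least, and a mitochondrial share of the reads below 10%. All 32 P6+ cells met the same limits.

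Female C57BL/6J mice had been immunized with the peptide in complete and later in incomplete Freund's adjuvant, and CD4 T cells were taken from the draining lymph nodes. All P6+ cells are stated to come from 1 mouse. The study's methods sort P6- cells from a smaller part of the sample volume, but the labels name no animal for any cell, and the part of the animal in the differences was not tested. Both kinds of cell were gated as antigen-experienced CD4 T cells, with high CD44 and a second surface marker meant to remove naive cells, index sorted into single wells and sequenced with the full-length Smart-Seq2 protocol, so immunization, adjuvant, organ and gate were shared by both groups. Before sorting, the CD4 T cells of both groups had been incubated with the drug dasatinib and then with the tetramer. Cells of unimmunized mice did not enter the comparison. Cells of 1 mouse are not replicates. Each group therefore counted as 1 sample, no test was made, and the differences below have no replicate check.

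A naive CD4 T cell that meets its peptide on MHC class II divides and takes on a helper or regulatory program. TH1 cells follow the transcription factor Tbx21 and make interferon gamma, T follicular helper (TFH) cells follow Bcl6 and help B cells, and regulatory T cells (Treg) are defined by Foxp3 and restrain the others. Naive and central memory cells keep Lef1, Tcf7, Ccr7 and S1pr1, which hold them in the circuit between blood and lymph nodes. Effector cells lose these genes and gain integrins, chemokine receptors and, in part, granzymes.

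Levels were taken as counts per 1000000 reads (cpm), pooled over the cells of a group. Because single-cell reads are sparse, the share of cells with 10 or more reads of a gene is given beside the level. A gene was called past the fold when its log2 ratio, with 1 cpm added to both levels, was at least 1 in either direction, its higher group had at least 20 cpm, and at least 25% of the cells of that group held 10 or more reads. Intervals are exact 95% intervals, Poisson for levels and binomial for shares. Poisson intervals cover the counting of reads and not of molecules, since the reads carry no molecular identifiers. Binomial intervals treat cells as independent draws, although all P6+ cells are stated to come from 1 mouse. The study also reports clonal expansion among P6+ cells, and members of a clone are not independent draws. The spread of levels between cells was far wider.

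The P6+ cells held 956280 to 3332191 reads and a median of 4396 genes, and the P6- cells held 522188 to 3401372 reads and a median of 3432 genes. With every cell thinned to 500000 reads the medians were 2772 and 2225 genes. The median mitochondrial share was 1.29% in P6+ and 3.56% in P6- cells. Cell names carried the plate prefixes P2 to P9, where the prefix P6 marks wells and the peptide bears the same name. All 32 P6+ cells bore prefix P6, with 11 of the 129 P6- cells, whose median mitochondrial share was 6.45%. All P6+ cells were sequenced on lane 2, with 57 of the P6- cells. The part that gene number, mitochondrial reads, prefix and lane played in the differences was not tested. Findings were set beside the 11 P6- cells of prefix P6, which are too few to tell for genes that few P6- cells held. Absence of such a gene from these 11 cells decides nothing about the plate.

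P6+ cells held more of 9 of 19 genes of effector migration and of 7 of 26 Treg genes, such as S100a6, Itgae, Klrg1 and Ikzf4, as well as of Gzmb, and less of 5 of 14 genes of the naive and recirculating state, such as Lef1, Foxp1 and Ccr7, and of 4 of 21 immediate early genes, Junb and Dusp1 among them. Foxp3 and Cd4 were not past the fold. Of 7385 genes with at least 20 cpm in either group, 388 were higher in P6+ cells (5.25%) and 124 were lower (1.68%). The median log2 ratio over the 7385 genes was 0.01. A log2 ratio of 2 or more was found for 90 of the higher genes, and one of -2 or less for 28 of the lower genes. For 19 of the 388 higher genes, a single P6+ cell held more than 50% of the reads.

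**Figure D1:**
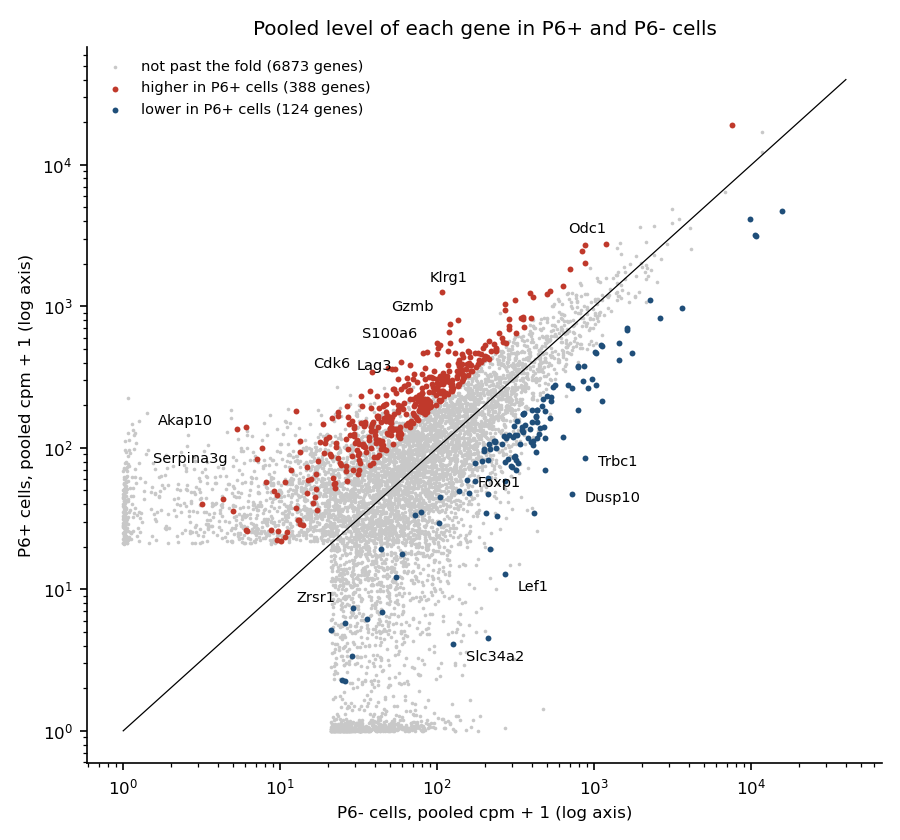
Pooled level of each of 7385 genes in the 129 P6- cells (horizontal axis, cpm + 1, log scale) and the 32 P6+ cells (vertical axis, cpm + 1, log scale), 1 point a gene; the line marks equal levels. The 388 genes past the fold toward P6+ cells are red and the 124 past it toward P6- cells are blue; grey genes at the left and lower edges were held by fewer than 25% of the cells of their higher group.

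Of the 388 higher genes, 279 also had a log2 ratio of at least 1 against the P6- cells of prefix P6 (3.78% of the 7385 genes), and of the 124 lower genes 91 did so in their direction (1.23%). The sign turned within the prefix for 25 of the higher and 13 of the lower genes. Taken alone, the comparison within prefix P6 put 733 of 6809 genes (10.8%) past the fold as higher and 457 (6.71%) as lower. Its median log2 ratio over the 7385 genes was 0.96. Each log2 ratio within the prefix is to be read beside that shift. With it subtracted, 209 of the 388 higher and 111 of the 124 lower genes passed by the fold, against 279 and 91 without. The share of cells holding a gene did not move in this way, with a median difference between P6+ and P6- cells of 4.70 percentage points over all prefixes and of 4.83 within prefix P6.

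Plates were also compared among the P6- cells alone. The median log2 ratio of prefix P6 over the other 7 prefixes was -1.08 over the 7385 genes. These genes were chosen by level in P6+ cells or in all P6- cells, and the median share of P6- cells that held them was 7.75%. A pool of 11 cells lacks many genes held so rarely. How much of the -1.08, and of the 0.96 within the prefix, comes from pool size rather than plate was not tested. Among genes that also met the limits on level and share, P6- cells of prefix P6 exceeded the others by the fold in 367 of 6870 genes (5.34%) and fell below them in 199 (2.9%). The pooled level in P6+ cells lay above that of the P6- cells of every one of the 8 prefixes for 1046 of the 7385 genes (14.2%) and below every one for 177 (2.4%). Among the genes past the fold, 242 of 388 and 61 of 124 lay outside the range of all prefixes.

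Klrg1, an inhibitory receptor for cadherins carried by terminally differentiated effector cells and by a subset of Treg, had the highest log2 ratio among genes held by a majority of P6+ cells. Per cell it ran from 0 to 3818 cpm in P6+ cells with a median of 1183, and from 0 to 2719 cpm in P6- cells with a median of 0. It stood at 10 or more reads in 19 of 32 P6+ cells (59.4%, 40.6 to 76.3), in 10 of 129 P6- cells (7.75%, 3.78 to 13.8) and in 0 of the 11 P6- cells of prefix P6. The pooled levels were 1259 cpm (1250 to 1268) and 106 cpm (105 to 107), a log2 ratio of 3.56, and the highest level of any prefix was 207 cpm. The remaining 13 P6+ cells lay in the range of most P6- cells. Klrg1 lies on chromosome 6 (122270596 to 122282882, minus strand, GRCm38).

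Other genes with the highest ratios were carried by about 8 to 15 P6+ cells each. Cdk6, a kinase of the G1 phase of the cell cycle, reached 341 against 37.1 cpm and was held by 15 P6+ and 13 P6- cells. Serpina3g, an intracellular inhibitor of cysteine proteases in activated T cells, stood at 83.0 against 6.14 cpm and was held by 10 P6+ and 2 P6- cells. Asb2, part of a ubiquitin ligase, had 180 against 11.5 cpm, and Acsl4, which activates long-chain fatty acids, had 145 against 17.8 cpm.

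Akap10 and Macir had the highest log2 ratios of this group, 4.69 and 4.54, but few reads behind the P6- level. Akap10, an anchor of protein kinase A, was held by 8 P6+ and 6 P6- cells and Macir by 9 and 3. Ccnc (a cyclin of the transcription machinery), Upf1 (a helicase of nonsense-mediated decay), Hsf2 (a heat shock transcription factor), Ubxn8 and Gmeb2 completed the 12 genes, with log2 ratios of 3.70, 3.67, 3.31, 3.07 and 2.94. All 12 lay above every prefix of P6- cells. Within prefix P6 their log2 ratios ran from 1.90 for Acsl4 to 9.18 for Klrg1, where a ratio of at least 1 was a condition of their choice. That of Klrg1 rests on 1.17 cpm in the P6- cells, near the 1 cpm added to both levels, so its size is not exact.

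Larger parts of the P6+ cells held the genes with the greatest difference in share. Pim1, a survival kinase induced by cytokines, ran from 1.2 to 1319 cpm in P6+ cells with a median of 195, and from 0 to 8220 cpm in P6- cells with a median of 2.88. It was at 10 or more reads in 30 of 32 P6+ cells (93.8%, 79.2 to 99.2) and 55 of 129 P6- cells (42.6%, 34 to 51.6), with 6 of the 11 of prefix P6. The cells overlapped, but 2 P6+ cells alone lay at the low level that a majority of P6- cells had.

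Ppp1r16b, a regulatory subunit of protein phosphatase 1, was held by 29 P6+ and 44 P6- cells, at medians of 162 and 0.813 cpm per cell. Odc1, the rate-limiting enzyme of polyamine synthesis, was likewise held by 29 P6+ cells, against 58 P6- cells, with pooled levels of 2688 and 866 cpm. Glrx, a thiol-reducing glutaredoxin, was held by 20 P6+ and 19 P6- cells at 753 and 120 cpm. Ly6a, the surface antigen Sca-1 of activated T cells, was held by 23 and 26 cells at 1101 and 312 cpm. Fnbp1, a membrane-curving protein of endocytosis, and Tmf1, a Golgi protein, were held by 25 and 24 P6+ cells against 30 and 31 P6- cells.

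**Figure D2:**
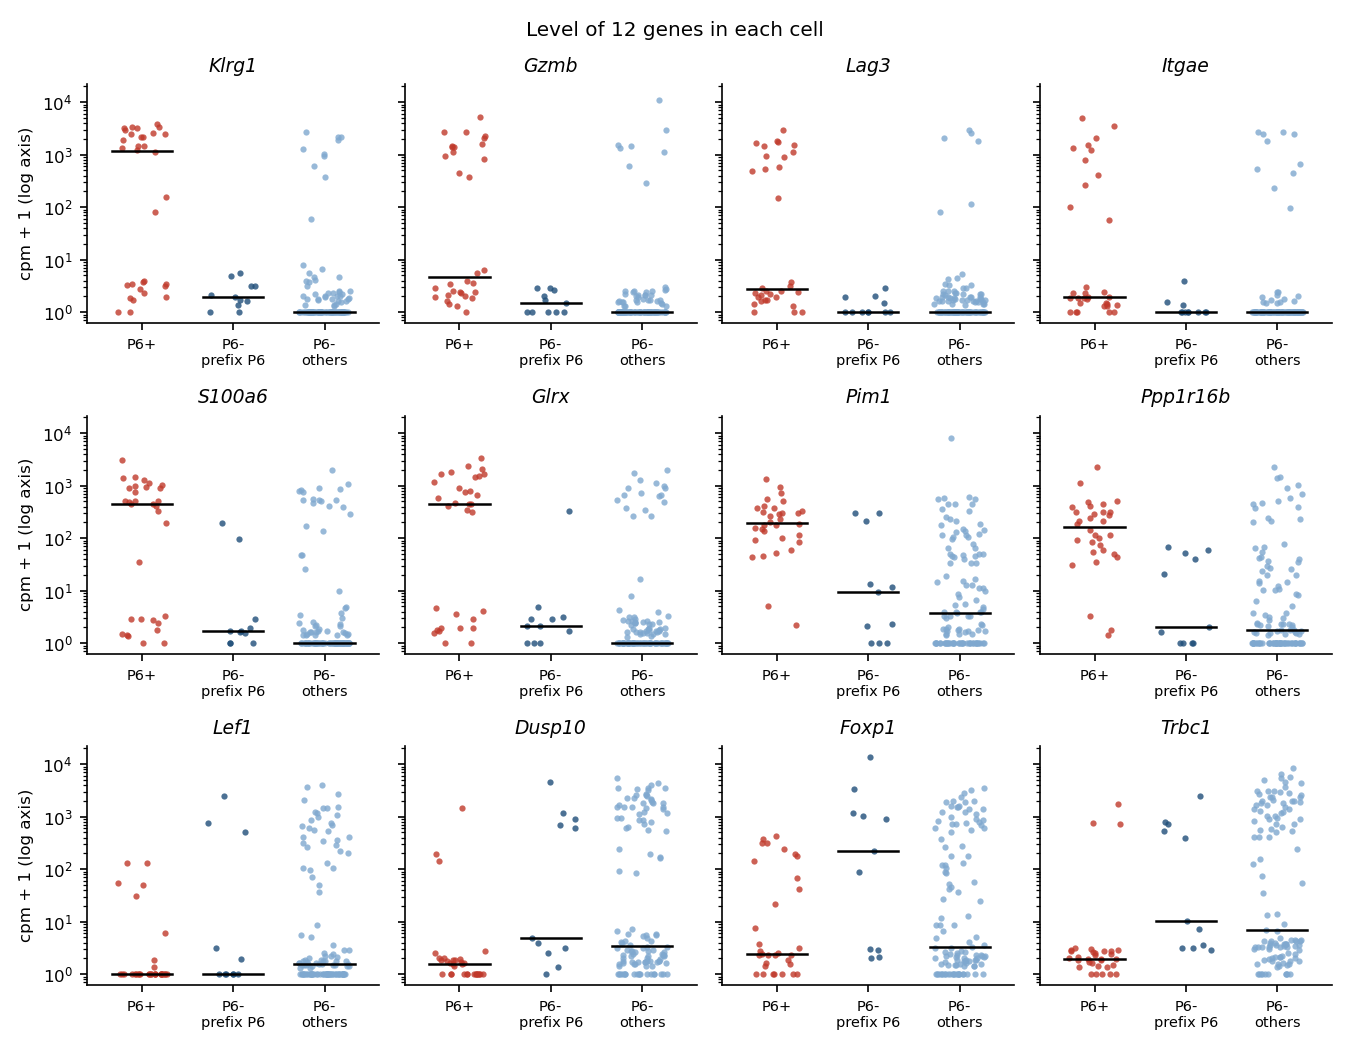
Level of 12 genes in each cell (cpm + 1, log scale) for the 32 P6+ cells, the 11 P6- cells of prefix P6 and the 118 P6- cells of the other prefixes; each point is a cell, spread sideways for legibility, and the black line is the group's median. Klrg1, Gzmb, Lag3 and Itgae split the P6+ cells into cells with high levels and cells near 0, while Pim1 and Ppp1r16b were held by nearly all P6+ cells.

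Genes of effector migration and the cytoskeleton had the most members past the fold. Of 19 members with at least 20 cpm, 9 were higher in P6+ cells and 0 were lower, beside 5.25% and 1.68% of all genes, and all 9 were also higher by the fold within prefix P6. The counts of every list below are to be read beside these shares of all genes. The median log2 ratio of the list was 1.01 over all prefixes and 1.72 within prefix P6, where all genes had 0.01 and 0.96. The calcium-binding proteins S100a6 and S100a11 stood at 553 against 99.0 cpm and at 333 against 70.0 cpm, and 21 and 27 P6+ cells held them against 24 and 46 P6- cells. Lgals1, a galectin that binds surface glycans of T cells, was at 1042 against 271 cpm and in 25 P6+ and 42 P6- cells, but 1 prefix of P6- cells reached 1119 cpm.

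Both chains of the integrin that binds E-cadherin in epithelia were among the 9. Itgae, its alpha chain, ran from 0 to 4981 cpm in P6+ cells with a median of 0.906, and from 0 to 2741 cpm in P6- cells with a median of 0. It was held by 11 P6+ and 10 P6- cells, and by 0 of the 11 of prefix P6, at pooled levels of 547 and 119 cpm. Itgb7, its beta chain, had 1843 against 701 cpm and was in 23 P6+ and 34 P6- cells. Of the 11 P6+ cells with Itgae, 10 also held Itgb7.

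The filament and membrane proteins Anxa2, Vim, Vasp and Actb made up the rest of the 9, with log2 ratios of 1.10, 1.21, 1.58 and 1.33. Actb, the cytoplasmic beta actin, was at 10 or more reads in every cell and ran from 2549 to 43291 cpm in P6+ cells with a median of 19237, against a range of 21.1 to 35852 cpm and a median of 5021 in P6- cells. The groups overlapped widely, although the pooled level of 18988 cpm exceeded that of each prefix of P6- cells, of which the highest was 8961 cpm. Cd44, a marker of the gate, was at 313 and 280 cpm and not past the fold.

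Among 26 Treg genes with at least 20 cpm, 7 were higher in P6+ cells and 0 were lower, and 6 of the 7 were higher by the fold within prefix P6. The median log2 ratio was 0.87 over all prefixes and 2.29 within prefix P6. Beside Klrg1 and Itgae these were Ikzf4 and Ikzf2, zinc finger factors of the Ikaros family, Tnfrsf9, a costimulatory receptor of activated T cells, Capg, an actin-capping protein, and Tgfb1, the cytokine TGF-β1. The list holds Klrg1, Itgae and Capg, which effector cells other than Treg carry too. Ikzf4 was in 12 P6+ cells at 509 cpm and in 7 P6- cells at 101 cpm, with 0 of 11 in prefix P6. Ikzf2, known as Helios, was in 21 P6+ and 24 P6- cells at 459 and 189 cpm. Its log2 ratio of 1.27 fell under the fold within prefix P6, at 0.86, and 1 prefix of P6- cells reached 488 cpm.

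Foxp3, the factor that defines Treg, ran from 0 to 1835 cpm in P6+ cells with a median of 0.639, and from 0 to 4490 cpm in P6- cells with a median of 0. It was at 10 or more reads in 11 of 32 P6+ cells (34.4%, 18.6 to 53.2) and 19 of 129 P6- cells (14.7%, 9.11 to 22.0). The pooled levels were 277 and 175 cpm, a log2 ratio of 0.66, and 311 cpm in the P6- cells of prefix P6, of which 3 of 11 held the gene. The P6+ level thus lay inside the range of the prefixes, 23.9 to 566 cpm. Il2ra, the alpha chain of the IL-2 receptor, had a log2 ratio of 0.77, and Ctla4, an inhibitory receptor, one of 0.64. Ctla4 was held by 25 of 32 P6+ cells and by 59 of 129 P6- cells. Il10, a suppressive cytokine, was in 3 P6+ cells and 1 P6- cell.

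Cytotoxic and TH1 genes counted 4 higher and 0 lower of 15 members, with a median log2 ratio of 1.19. Gzmb, the protease granzyme B, ran from 0 to 5244 cpm in P6+ cells with a median of 3.68, and from 0 to 11108 cpm in P6- cells with a median of 0. It was at 10 or more reads in 14 of 32 P6+ cells (43.8%, 26.4 to 62.3), in 8 of 129 P6- cells (6.20%, 2.72 to 11.9) and in 0 of 11 in prefix P6. Pooled levels were 802 and 134 cpm, a log2 ratio of 2.57, and 1 other prefix, P9, reached 655 cpm. The P6- cell at 11108 cpm belongs to prefix P9 and held 13778 reads, against 853 in the next cell of that prefix. The chemokine receptor Cxcr3, which follows ligands induced by interferon gamma, was in 14 P6+ and 12 P6- cells at 652 and 118 cpm. A single P6+ cell stood at 8966 cpm, and the next highest at 2574 cpm. Cxcr6, a receptor of tissue-homing T cells, and Nkg7, a protein of cytotoxic granules, had log2 ratios of 1.28 and 1.72, and Cxcr6 one of 0.48 within prefix P6.

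The defining factor and cytokine of TH1 cells were not past the fold. Tbx21 was in 3 of 32 P6+ cells (9.38%) and 3 of 129 P6- cells (2.33%) at 107 and 57.1 cpm, a log2 ratio of 0.90, and all 3 of these P6+ cells held Gzmb and Klrg1. Ifng, the gene of interferon gamma, was at 10 or more reads in 0 of 32 P6+ and 4 of 129 P6- cells, with 0.0337 and 8.39 cpm. The pore-forming perforin Prf1 was in 0 P6+ cells and 1 P6- cell. Gzma, a further granzyme, was in 2 P6+ cells and 0 P6- cells.

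Klrg1, held by 19 of the 32 P6+ cells, was set beside other genes in the same cells. Every one of the 14 P6+ cells with Gzmb also held Klrg1, as did 11 of the 13 with Lag3 and 10 of the 11 with Itgae. For Foxp3 it was 8 of 11 cells, beside 59.4% of all P6+ cells, and 6 of the 11 held Gzmb. All 19 Klrg1 cells held S100a6 and Lgals1. None of the 19 held Tcf7 or Bcl6, which 7 and 6 of the other 13 P6+ cells held, but 9 of the 12 P6+ cells with Foxp1 and 3 of the 6 with Lef1 held Klrg1. Among P6- cells, 6 of the 8 with Gzmb held Klrg1 and 0 of the 10 with Klrg1 held Tcf7, which 45 P6- cells held. These pairs were chosen after the values were seen.

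Receptors that inhibit or costimulate T cells counted 3 higher and 0 lower of 17, with a median log2 ratio of 0.86. Lag3, which binds MHC class II and inhibits the T cell, ran from 0 to 2908 cpm in P6+ cells with a median of 1.74, and from 0 to 2896 cpm in P6- cells with a median of 0. It was in 13 of 32 P6+ cells (40.6%, 23.7 to 59.4), in 6 of 129 P6- cells (4.65%, 1.73 to 9.85) and in 0 of 11 in prefix P6, at 464 and 80.6 cpm. Vsir, an inhibitory ligand also called VISTA, and Tnfrsf9 were the others, of which Vsir was under the fold within prefix P6 (0.53). Tigit, an inhibitory receptor for nectins, and Tnfrsf1b, the second receptor for tumour necrosis factor, missed the fold at log2 ratios of 0.94 and 0.87 and are named for their shares. Tigit was in 29 of 32 P6+ cells (90.6%, 75.0 to 98.0) and 42 of 129 P6- cells (32.6%, 24.6 to 41.4), the greatest difference in share toward P6+ cells of any gene. Tnfrsf1b was in 28 and 45 cells. Both had 2 or 3 of 11 cells in prefix P6.

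Counts for helper lineages other than TH1 are small and stand beside 5.25% of all genes higher and 1.68% lower. Gata3, the TH2 factor, was in 19 of 32 P6+ cells (59.4%, 40.6 to 76.3) and 23 of 129 P6- cells (17.8%, 11.7 to 25.5), at 390 and 195 cpm. Its log2 ratio of 0.997 was just under the fold. Batf, an AP-1 factor needed by several effector lineages, was the single TH2 list member of 5 past it, at 383 and 162 cpm. The log2 ratio of Batf fell under the fold in 2 of the other settings tried. Of 4 TH17 members, 0 were past the fold.

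Among 14 TFH genes, Maf was higher, at 112 against 41.4 cpm, and Tnfsf8, the ligand of CD30, was lower, at 550 against 1427 cpm. Bcl6, the TFH factor, was in 6 P6+ and 12 P6- cells with a log2 ratio of 0.59, and its sign turned within prefix P6 (-0.54). Pdcd1, the receptor PD-1, was in 4 P6+ and 16 P6- cells at 112 and 336 cpm.

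Metabolic, survival and division genes added a few members each, where 5.25% of all genes were higher and 1.68% lower. Glycolysis had 3 higher and 0 lower of 15, with a median log2 ratio of 0.68: Pkm, pyruvate kinase, at 2016 against 866 cpm in 29 P6+ and 71 P6- cells, and Tpi1 and Pgam1 with log2 ratios of 1.33 and 2.12. Within prefix P6 that of Pgam1 was 0.93, under the fold. Pfkl, a subunit of phosphofructokinase, stood the other way at 24.9 against 429 cpm, in 2 P6+ and 23 P6- cells, which is under the required share of cells. Of 15 apoptosis and survival genes, 4 were higher, among them Pim1, Bcl2l1 and Bcl2a1d, and Birc3 was lower, but Birc3 turned to a log2 ratio of 1.04 within prefix P6. The death receptor ligand Fasl and the survival factor Bcl2 were at 10 or more reads in 0 of 32 P6+ cells, and in 12 and 5 of 129 P6- cells.

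Cell cycle genes had a median log2 ratio of 1.58, but 2 of 17, Cdk6 and Mcm2, were past the fold, and others with high ratios were held by few P6+ cells. Rrm2, a subunit of ribonucleotide reductase, and Birc5, an inhibitor of apoptosis made in mitosis, were in 4 P6+ cells each and in 0 and 1 of the P6- cells. For Rrm2, 1 cell held 63.9% of the reads of the P6+ cells. Mcm2, a subunit of the replicative helicase, was at 234 against 77.5 cpm, but at 230 cpm in the P6- cells of prefix P6.

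Type I interferon response genes counted 4 higher and 0 lower of 15 with a median log2 ratio of 0.19, close to that of all genes. Ifi27l2a, at 2444 against 828 cpm, was in 30 P6+ and 101 P6- cells, and Isg20, Bst2 and Zbp1 were the others. Bst2 was under the fold within prefix P6 (0.94), and its log2 ratio was -0.11 with every deposited cell. Of 10 heat shock genes, Hspd1 was higher and Dnajb1 lower, but within prefix P6 Hspd1 turned to a log2 ratio of -0.54 and Dnajb1 stood at -0.66. The 76 cytosolic ribosomal protein genes had a median log2 ratio of 0.00 with 1 member past the fold in each direction.

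**Figure D3:**
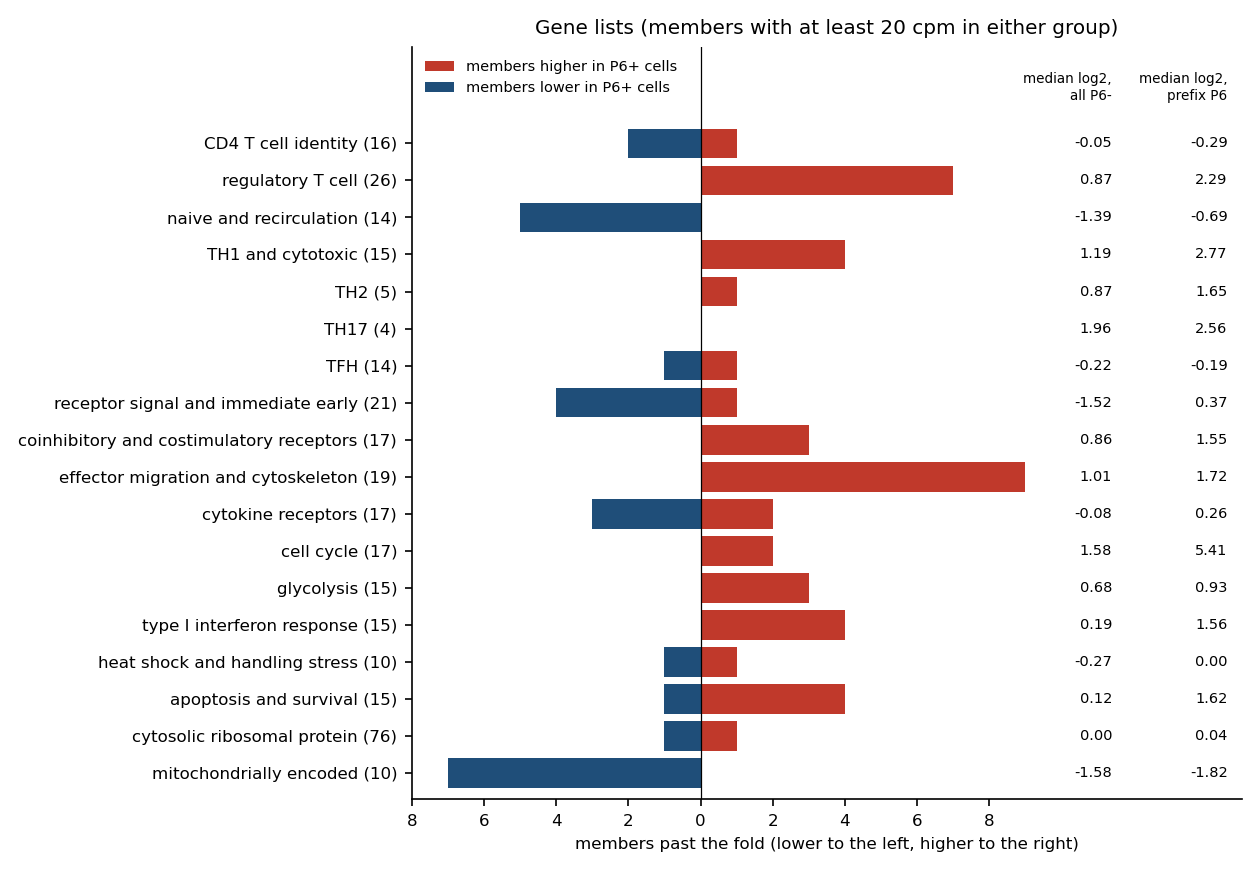
Number of members of each gene list past the fold toward P6+ cells (red, to the right) and toward P6- cells (blue, to the left), with the number of members at 20 cpm or more in parentheses. The 2 columns at the right give the list's median log2 ratio against all P6- cells and against those of prefix P6, beside 0.01 and 0.96 for all genes; 9 effector migration and 7 Treg genes were higher and 5 naive and 7 mitochondrial genes were lower.

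On the other side stood genes of the naive and recirculating state. Of 14 members, 5 were lower in P6+ cells and 0 were higher, 4 of the 5 also by the fold within prefix P6, and 13 of the 14 had a ratio below 0. The median log2 ratio was -1.39 over all prefixes and -0.69 within prefix P6, where all genes had 0.96. Lef1, a factor of the Wnt pathway that maintains naive T cells, ran from 0 to 130 cpm in P6+ cells with a median of 0, and from 0 to 3974 cpm in P6- cells with a median of 0.556. The highest P6+ cell lay far under the highest P6- cells, and 6 of 32 P6+ and 38 of 129 P6- cells held 10 or more reads. Pooled levels were 11.7 and 270 cpm, a log2 ratio of -4.41, and 1 prefix of P6- cells was at 10.9 cpm.

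Foxp1, which enforces T cell quiescence, ran from 0 to 430 cpm in P6+ cells with a median of 1.47, and from 0 to 13482 cpm in P6- cells with a median of 2.55. It was held by 12 of 32 P6+ and 59 of 129 P6- cells at pooled levels of 68.4 and 483 cpm, below every prefix of P6- cells. So the share differed little (37.5 and 45.7%), and the level in the cells that held it was lower in P6+ cells. Ccr7, the receptor that brings T cells into lymph nodes, was in 14 P6+ and 75 P6- cells at 823 and 2612 cpm. S1pr1, the receptor for sphingosine 1-phosphate that lets T cells leave them, was at 680 and 1607 cpm, but at 596 cpm in prefix P6, where its log2 ratio was 0.19. Il7r, the alpha chain of the IL-7 receptor, was at 135 and 391 cpm. Tcf7 and Klf2 had log2 ratios of -0.91 and -0.78 and were not past the fold.

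Further genes lower in P6+ cells were named by their ratio or share and belong to no list. Dusp10, a phosphatase of stress-activated kinases, ran from 0 to 1479 cpm in P6+ cells with a median of 0.572, and from 0 to 5524 cpm in P6- cells with a median of 2.85. It was in 3 of 32 P6+ cells (9.38%, 1.98 to 25) and 51 of 129 P6- cells (39.5%, 31 to 48.5), at 46.1 and 717 cpm, and 1 P6+ cell held 83.8% of the P6+ reads. Camk2d, a calcium-dependent kinase, had 33.9 against 412 cpm, and Grap2, an adaptor of the T cell receptor, 56.8 against 269 cpm. The RNA-binding repressor Zfp36 was in 3 P6+ and 40 P6- cells, and Zeb1, a repressor of transcription, in 10 and 55.

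Vps37b, a subunit of the ESCRT sorting complex, was one of the few lower genes held by a majority of cells, 19 of 32 P6+ (59.4%, 40.6 to 76.3) and 105 of 129 P6- cells (81.4%, 73.6 to 87.7), at 185 and 782 cpm. Gas5, a noncoding RNA that hosts small nucleolar RNAs and accumulates in resting cells, was in 13 P6+ and 73 P6- cells at 81.7 and 280 cpm. Arid4b, Oser1, Gramd3, Clk3, Chd2 and Tcp11l2 completed the genes named by ratio or share, with log2 ratios from -2.56 for Oser1 to -1.10 for Tcp11l2.

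The immediate early genes that follow receptor signals within minutes had 4 lower and 1 higher of 21 members, and 17 of the 21 had a ratio below 0. Both groups had been incubated with dasatinib before sorting, and its part in these levels was not tested. The median log2 ratio was -1.52 over all prefixes but 0.37 within prefix P6, where all genes had 0.01 and 0.96. The P6- cells of prefix P6 stood at -1.60 against the other P6- cells, where all genes had -1.08. Junb, an AP-1 subunit, ran from 1.91 to 4798 cpm in P6+ cells with a median of 579, and from 0.372 to 16362 cpm in P6- cells with a median of 2203. It was in 29 of 32 P6+ and 114 of 129 P6- cells, so that nearly all cells of both groups held it, at pooled levels of 972 and 3633 cpm. In prefix P6 the P6- cells had 5308 cpm and the log2 ratio was -2.45.

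Dusp1, a phosphatase that switches off MAP kinases, was at 415 and 1445 cpm, with 1629 cpm in prefix P6. Fosl2, an AP-1 subunit, was in 5 P6+ and 42 P6- cells at 18.2 and 217 cpm. Nr4a1, an orphan nuclear receptor and a reporter of T cell receptor signals, was at 275 and 1018 cpm, and at 464 cpm in prefix P6, where its log2 ratio of -0.75 missed the fold. Fosb, Egr1 and Irf4 were at 10 or more reads in 0 of 32 P6+ cells, and in 9, 10 and 4 of 129 P6- cells. None of the 11 P6- cells of prefix P6 held them either. Nfkbid, an atypical inhibitor of NF-κB, was the higher member, but 1 of the 8 P6+ cells that held it had 82.2% of its P6+ reads.

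The promoters of the 3 lower members that hold the core of the cAMP response element, TGACG, are shown because these genes were lower together. The letters are the 250 bases before the start of each gene in RefSeq (GRCm38.p6), 5′ to 3′ on the gene's strand, and capitals mark TGACG on either strand.
Nr4a1, chr15:101266596-101266845, plus strand: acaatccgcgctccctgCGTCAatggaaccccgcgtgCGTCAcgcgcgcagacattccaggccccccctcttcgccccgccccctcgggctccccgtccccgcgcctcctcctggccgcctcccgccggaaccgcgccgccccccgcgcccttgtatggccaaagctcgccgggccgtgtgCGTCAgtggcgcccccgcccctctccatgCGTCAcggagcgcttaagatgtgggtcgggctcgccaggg
Junb, chr8:84978749-84978998, minus strand: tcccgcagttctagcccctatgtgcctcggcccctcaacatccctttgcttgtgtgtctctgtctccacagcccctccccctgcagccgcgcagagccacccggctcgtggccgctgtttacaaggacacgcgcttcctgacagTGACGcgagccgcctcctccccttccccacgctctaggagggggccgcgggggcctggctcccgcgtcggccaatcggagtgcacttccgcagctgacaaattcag
Dusp1, chr17:26508473-26508722, minus strand: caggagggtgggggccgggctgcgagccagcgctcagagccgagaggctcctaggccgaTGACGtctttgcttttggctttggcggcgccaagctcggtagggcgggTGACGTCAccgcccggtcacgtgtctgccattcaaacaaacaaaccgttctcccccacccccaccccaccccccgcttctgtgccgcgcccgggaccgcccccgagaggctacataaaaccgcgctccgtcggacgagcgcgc
The core was found 4 times before Nr4a1, 1 time before Junb and 3 times before Dusp1, of which the last pair overlap as the whole palindrome TGACGTCA, and 0 times before Fosl2. It was in 9 of the 17 list members matched to a promoter and in 17.9% of the 27025 promoter windows of this length. Of 8 motifs searched, the whole element was in 1 member (Dusp1) and 1.62% of windows, and AP-1 (TGANTCA) in 1 member (Tnfaip3) and 6.87% of windows. NF-κB (GGGANTTCC), E-box (CACGTG), T-box (TCACACC), Runx (TGTGGT) and the serum response element were in 2, 4, 1, 1 and 0 members and in 1.42, 6.05, 3.31, 14.2 and 0.0740% of windows. A match of letters is a description and does not show that a factor binds there.

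T cell identity was shared by both groups. All 16 identity genes had at least 20 cpm, with 1 higher, 2 lower and a median log2 ratio of -0.05. Their summed level per cell ran from 6987 to 26717 cpm in P6+ cells with a median of 12063, and from 97.6 to 40595 cpm in P6- cells with a median of 14137. A single P6- cell held none of them at 10 reads. Cd4, the coreceptor, was in 16 of 32 P6+ and 39 of 129 P6- cells at 401 and 393 cpm. Zap70, a kinase of the receptor complex, was higher with a log2 ratio of 1.02, which was 0.64 within prefix P6.

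Trbc1, the first of the 2 constant segments of the T cell receptor beta chain, ran from 0 to 1762 cpm in P6+ cells with a median of 0.957, and from 0 to 8289 cpm in P6- cells with a median of 6.33. It was in 3 of 32 P6+ cells (9.38%, 1.98 to 25) and 62 of 129 P6- cells (48.1%, 39.2 to 57), at 83.7 and 875 cpm, below every prefix. The gene shares reads with its near-identical copy Trbc2, so that its count is uncertain to that degree. Trbc2 was in 30 P6+ and 103 P6- cells at 888 and 1014 cpm. Trbv13-2, a variable segment of the beta chain, was in 16 of 32 P6+ cells (50%, 31.9 to 68.1), 26 of 129 P6- cells (20.2%, 13.6 to 28.1) and 0 of 11 in prefix P6. None of the 16 P6+ cells with Trbv13-2 held Trbc1, which 13 of the 26 P6- cells with Trbv13-2 did. The study reports clonal expansion among P6+ cells and names this variable segment as part of their most common beta chain. Clones were not called here. The part of clonal expansion in the shares of these receptor genes, and of all other genes, was not tested.

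Cytokine receptors went both ways, with 2 higher and 3 lower of 17. Il2rb, the beta chain shared by the IL-2 and IL-15 receptors, was in 23 P6+ and 57 P6- cells at 1277 and 520 cpm, but its log2 ratio of 1.30 was 0.69 within prefix P6. Crlf2, the receptor for thymic stromal lymphopoietin, was in 14 and 20 cells at 148 and 49.6 cpm. Ifnar1, Tgfbr2 and Il7r were lower, the first of them with a log2 ratio of -1.51 over all prefixes and -1.16 within prefix P6.

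Slc34a2 separated the groups in every cell by level, in contrast to the genes above. This phosphate transporter of epithelia ran from 0 to 6.81 cpm in P6+ cells with a median of 3.18, and from 8.98 to 6588 cpm in P6- cells with a median of 53.7. No P6+ cell reached the lowest P6- cell. In reads, P6+ cells held 0 to 16 and P6- cells 15 to 4050, and 127 of the 129 P6- cells lay above every P6+ cell. Pooled levels were 3.10 and 125 cpm, a log2 ratio of -4.94, and 149 cpm in prefix P6, so the difference was as large within the plate prefix. Among the 15 P6- cells with at least 4396 genes, the median of P6+ cells, Slc34a2 ran from 8.98 to 153 cpm. The gene lies on chromosome 5 (53038081 to 53071664, plus strand, GRCm38).

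The predicted genes Gm42826 and Gm47283, named for their shares after the values were seen, had 10 or more reads in 0 and 6 of 32 P6+ cells and in 112 and 99 of 129 P6- cells. Gm47283 is annotated on chromosome Y although the mice were female, and 4 genes of the male-specific part of that chromosome (Ddx3y, Kdm5d, Uty and Eif2s3y) were at 10 or more reads in 0 cells of either group. Slc34a2 and these 2 were the genes whose share was at least 50 percentage points smaller in P6+ cells, while 9 genes had a share that much larger. Zrsr1, a splicing factor gene without introns, was in 13 P6+ and 101 P6- cells at 5.19 and 34.7 cpm, and in 10 of the 11 P6- cells of prefix P6. Rn18s, the 18S ribosomal RNA, was in every cell at 3123 and 10689 cpm, and took 0.312% of P6+ and 1.07% of P6- reads.

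**Figure D4:**
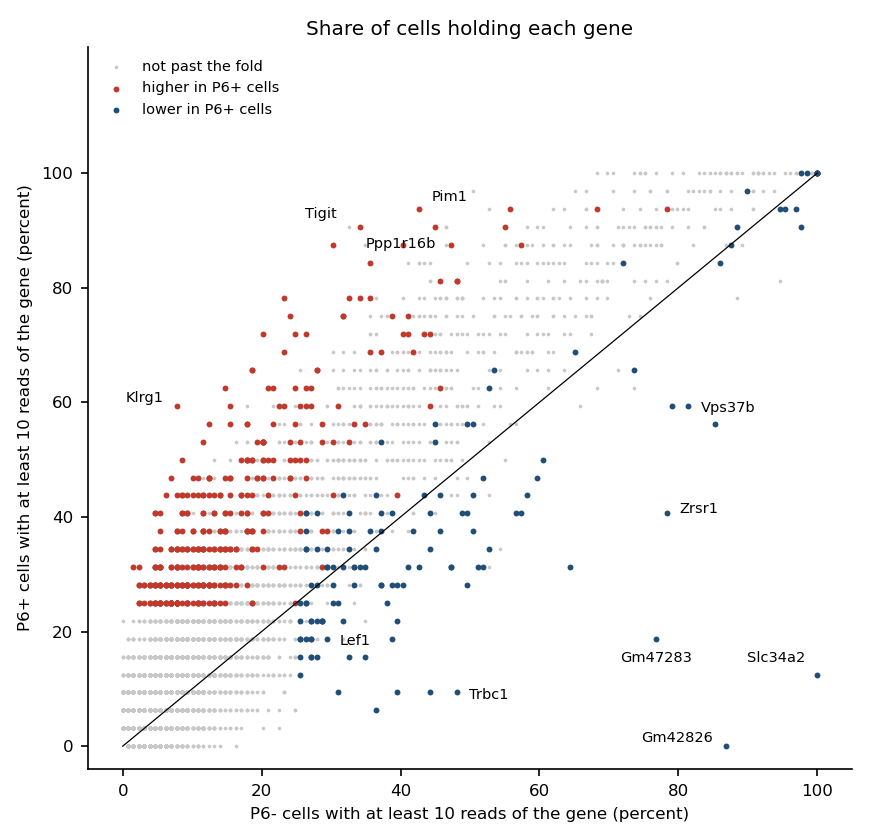
Share of the 129 P6- cells (horizontal axis, percent) and of the 32 P6+ cells (vertical axis, percent) with at least 10 reads of each of 7385 genes, 1 point a gene; red and blue mark genes past the fold toward P6+ and P6- cells and the line marks equal shares. Slc34a2, Gm42826 and Gm47283 lie alone at the lower right, and Tigit (grey, not past the fold), Ppp1r16b, Pim1 and Klrg1 are among the genes farthest above the line.

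Mitochondrially encoded protein genes belong beside these. Of 10 with at least 20 cpm, 7 were lower in P6+ cells and 0 were higher, all 7 by the fold within prefix P6, with a median log2 ratio of -1.58 over all prefixes and -1.82 within prefix P6. The list was chosen after the values were seen, and the limit of 10% applied to all cells on these same reads. Subunits of cytochrome c oxidase and of complex III led in reads: mt-Co1 stood at 4744 against 15666 cpm and mt-Cytb at 3169 against 10540 cpm, in every cell of both groups. The P6+ level of mt-Co1 lay below that of each prefix, the lowest of which was 10655 cpm. The mitochondrial ribosomal RNAs mt-Rnr1 and mt-Rnr2 had log2 ratios of -1.65 and -1.26. With mitochondrial reads left out of the totals, 371 genes were higher and 132 lower.

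**Figure D5:**
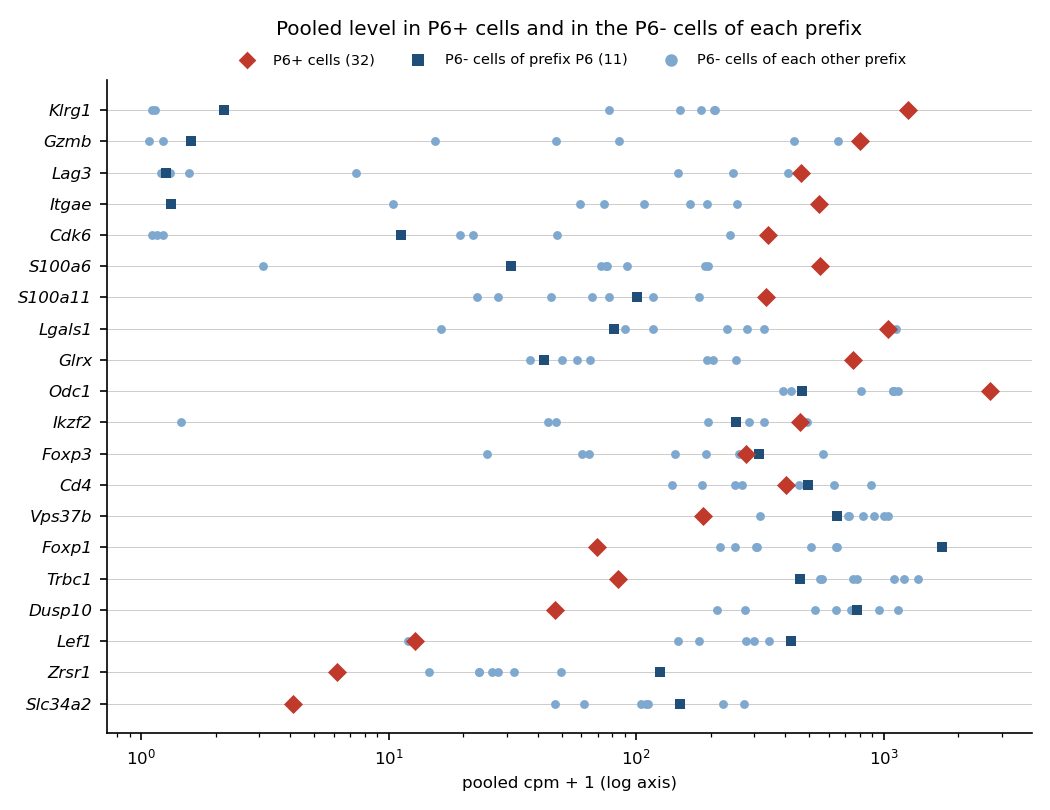
Pooled level (cpm + 1, log scale) of 20 genes in the 32 P6+ cells (red diamonds), in the 11 P6- cells of prefix P6 (dark squares) and in the P6- cells of each of the 7 other prefixes (light circles). Klrg1, Gzmb, Lag3 and Itgae in P6+ cells lie to the right of all prefixes, Vps37b, Foxp1, Trbc1, Dusp10, Zrsr1 and Slc34a2 to the left of all, and Foxp3, Cd4, Ikzf2 and Lgals1 within their range.

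Markers of cells that the gate was meant to remove were looked for in both groups. The 14 B cell markers summed to between 0.741 and 7726 cpm per P6+ cell with a median of 733, and to between 0 and 10663 cpm per P6- cell with a median of 1.92. Of the 14, 10 were at 10 or more reads in no P6+ cell, among them Cd79a, Ms4a1 and Pax5, and the sum came from Ighm and Cd74, which 14 P6+ cells each held, with Cd79b and Igkc in 2 P6+ cells each. Ighm had a log2 ratio of 0.87 and was not past the fold. The CD8 and erythroid markers had 0 reads in P6+ cells, and the 7 NK and innate lymphoid markers were at 10 or more reads in none of them. Among P6- cells, 2 held a CD8 marker, up to 1357 cpm, and 3 an NK or innate lymphoid marker, up to 606 cpm. Of 12 myeloid and dendritic markers, Cst3 alone was held by P6+ cells, 15 of 32, and by 24 of 129 P6- cells.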

How the data were processed

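Cells were sorted and sequenced singly with Smart-Seq2. The authors checked reads with FastQC 0.11.7, aligned them to the mouse genome GRCm38 (Ensembl annotation) with STAR 2.6.0a and SAMtools 0.1.19, and deposited a table of raw read counts with 1 column a cell, with no molecular identifiers. Duplicates from PCR therefore remain in the counts, and a few molecules can give many reads in 1 cell. The file held 53647 rows under 53546 gene names, and rows that shared a name (81 names) were averaged. Neither the deposited mapping rates nor a filter on them was used here, so the P6- cells are not the same set as those of the study. Nor were doublets looked for, since single cells were sorted into wells.

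Groups followed the deposited tetramer sign, which matched the labels in all 176 cells. For each gene, reads were pooled within a group and scaled to the pooled total, 59345283 reads in P6+ and 203898848 in P6- cells, to give cpm. Exact Poisson intervals cover the counting of reads only, and exact binomial intervals treat cells as independent draws (scipy 1.17.1, Python 3.11.15, numpy 2.4.6, pandas 2.3.3). Neither covers the spread between animals. TMM and DESeq2 size factors came from edgeR 4.0.16 and DESeq2 1.42.0 in R 4.3.3, as alternatives of scaling and without their tests. The code was tested on simulated data.

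Named genes were the 12 highest and 12 lowest log2 ratios and the 12 largest differences in share in each direction, among genes past the fold that also had a log2 ratio of at least 1 in the same direction within prefix P6. Genes with more than 50% of the reads in 1 cell, receptor segments, mitochondrial and predicted genes were left out of these. Added to them were up to 4 members of each list with the largest absolute ratios, and Foxp3, Il2ra, Ctla4, Ikzf2, Tbx21, Gata3, Bcl6, Ifng, Il10, Cd4 and Trbv13-2. Some genes that the rule names are not reported here. All other genes were chosen after their values were seen. The members and the gene lists were chosen with earlier results of these data known. In all, 19 other settings were listed at the outset and tried, and 2 more were added after seeing the data.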

Additional observations from a re-analysis of the deposited data

Results flagged for a closer look

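Slc34a2 was also high in cells outside the comparison. The 15 P6- cells left out for low reads or a high mitochondrial share all held 10 or more reads of it, from 145 to 8048 with a median of 1512. Their pooled level was 3449 cpm, against 125 cpm in the 129 P6- cells kept and 3.10 cpm in the 32 P6+ cells. In the same 15 cells Klrg1 stood at 0 to 4 reads. Over the 129 P6- cells kept, the level of Slc34a2 went with the number of genes at Spearman's rho of -0.31, given as a description of cells that share plates and depth.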

How the results depend on the processing

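Beside 388 higher and 124 lower genes, the counts were 733 and 457 against P6- cells of prefix P6 only, 1794 and 1975 with no minimum share of cells, 92 and 39 with at least 50% of cells, and 1116 and 771 with detection at 1 read. With log2 ratios within prefix P6 centred on their median, an alternative added after seeing the data, 451 were higher and 897 lower. Over the other alternatives the counts ran from 295 (the top cell of each gene left out, with 162 lower) to 497 higher genes (P6- cells of lane 2 only, added after seeing the data, with 145 lower). Higher genes made up 75.8% of calls, but 61.6% in prefix P6, 33.5% there after centring, 47.6% with no minimum share, 59.1% at 1 read and 64.6% with the top cell left out.

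Of 59 named genes past the fold, 56 kept it in lane 2 and 55 with thinned reads. Against the P6- cells of prefix P6 only, 51 kept it and 2 changed sign, and after centring there 46 kept it and 6 changed sign. Those named by ratio or share were chosen to pass within prefix P6. Of all genes past the fold, 279 of the 388 higher and 91 of the 124 lower kept it there. Log2 ratios changed sign for Birc3 (1.04 within prefix P6, 0.0842 centred), Hspd1 (-0.54 and -1.50), Bst2 (-0.11 with every deposited cell, -0.0234 centred), Ikzf2 (-0.10 centred), Pgam1 (-0.0245 centred) and Zap70 (-0.32 centred). The cause was not tested. No alternative in which 1 P6+ mouse is left out could be made. No paired analysis was possible because the groups carry no replicate numbers and no test was made.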
